A study of Mus musculus with 8 samples.

Results

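Ubiquitin-specific proteases (USPs) are cysteine proteases that cut the small protein ubiquitin from other proteins, and they form the largest family of deubiquitinating enzymes. A ubiquitin chain can send a protein to the proteasome, mark a histone or build a signalling platform. An active USP can set how long such a mark lasts on its own targets. In macrophages ubiquitin chains on adaptors such as TRAF6 carry the signal from Toll-like receptors to NF-kB, and several USPs are known to trim them. The genes described here are those named Usp followed by a number, with or without a final x or y. Usp18, which removes the ubiquitin-like protein ISG15, was left out, and the Usp17-like genes do not match the naming rule. The rule found 49 members among 55414 counted genes, and 42 of them passed the filter on low counts and were tested among 16304 genes.

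The counts came from iBMDM cells, an immortalized line of mouse bone marrow macrophages of wild-type genotype. Cells were given 5 μM disulfiram (DSF, a drug against alcohol dependence) or its solvent DMSO for 0.5 h, then 1 μg/ml lipopolysaccharide (LPS, the bacterial ligand of the receptor TLR4) or water for 4 h. The 4 groups of 2 libraries were control (DMSO and water), LPS (DMSO and LPS), DSF (DSF and water) and DSF+LPS. The question put was whether the drug dampens the response to TLR4. All groups are 1 cell line, and the labels do not say whether the libraries of a group came from separate cultures, so p-values reflect the spread among these libraries alone, and that spread may be technical. Each library held between 17822041 and 21694922 counts. Levels are given as CPM, which are counts scaled to library size, with each size adjusted by TMM scaling across libraries. The 12 macrophage markers summed to 2655 to 2706 CPM in control, 2424 to 2597 with DSF, 3362 to 3518 with LPS and 2834 to 2985 with DSF+LPS. These sums hide opposite changes of single markers. With DSF 6 of the 12 fell against control and 3 rose, where 27.1% of all genes tested fell and 31.0% rose. Mean CPM went from 815 to 461 for Csf1r and from 580 to 760 for Cd68. Summed markers of other cell types stayed between 0 and 14.2 CPM in every library.

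Upstream sequence is given for 4 members on which the comparisons below turn: Usp2, which fell with either agent, Usp46, which fell with the drug, and Usp11 and Usp36, which rose with it. The sequences are from RefSeq (GRCm38.p6), of up to 250 bases before the annotated gene start, 5′ to 3′ on the strand of the gene, and bases inside an annotated exon were left out. The window of Usp2 is chr9:44084670-44084919 on the plus strand, that of Usp46 chr5:74068432-74068661 on the minus strand, that of Usp11 chrX:20703659-20703905 on the plus strand and that of Usp36 chr11:118290245-118290494 on the minus strand. Capitals mark a match to a searched motif.
Usp2: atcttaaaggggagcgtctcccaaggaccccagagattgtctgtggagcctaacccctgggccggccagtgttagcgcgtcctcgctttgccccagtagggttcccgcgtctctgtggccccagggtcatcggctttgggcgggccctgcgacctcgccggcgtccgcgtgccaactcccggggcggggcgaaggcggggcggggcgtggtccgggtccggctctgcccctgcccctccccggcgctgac
Usp46: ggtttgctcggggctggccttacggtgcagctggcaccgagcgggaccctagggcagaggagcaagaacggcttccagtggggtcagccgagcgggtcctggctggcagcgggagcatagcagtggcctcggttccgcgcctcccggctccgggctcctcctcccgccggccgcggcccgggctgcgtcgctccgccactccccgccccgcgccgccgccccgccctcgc
Usp11: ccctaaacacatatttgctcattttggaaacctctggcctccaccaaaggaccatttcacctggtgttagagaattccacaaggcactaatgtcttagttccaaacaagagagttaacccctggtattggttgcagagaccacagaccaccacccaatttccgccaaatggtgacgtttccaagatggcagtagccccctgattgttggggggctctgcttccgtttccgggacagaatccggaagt
Usp36: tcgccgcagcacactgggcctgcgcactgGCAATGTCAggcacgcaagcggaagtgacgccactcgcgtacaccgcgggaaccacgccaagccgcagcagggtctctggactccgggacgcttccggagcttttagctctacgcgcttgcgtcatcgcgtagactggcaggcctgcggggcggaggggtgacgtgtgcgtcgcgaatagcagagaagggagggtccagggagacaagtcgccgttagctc
The motifs were searched on both strands in the 250 bases before the start of the 38 members with an entry. Unlike in the printed sequences, bases inside an annotated exon were kept in this search. All 250 bases of the windows of Usp16, Usp25 and Usp31 lay inside annotated exons. So did 173 bases of that of Usp20, 156 of Usp27x and 80 of Usp13. The window of Usp25 was not printed for this reason. The core of the antioxidant response element (TGACNNNGC) was in 6 of these windows (Usp13, Usp20, Usp25, Usp26, Usp34 and Usp36), against 10.2% of 32851 windows of the same length. The heat shock element, searched in both of its phases, was in 0 of 38, against 0.466% of all windows for each phase. The NF-kB consensus was in the window of Usp27x (3.90% of all windows), the interferon-stimulated response element in that of Usp49 (2.98%), and the E-box CACGTG in those of Usp4, Usp16 and Usp31 (6.02%). A match or its absence describes the letters of the window and says nothing of binding.

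**Figure D1:**
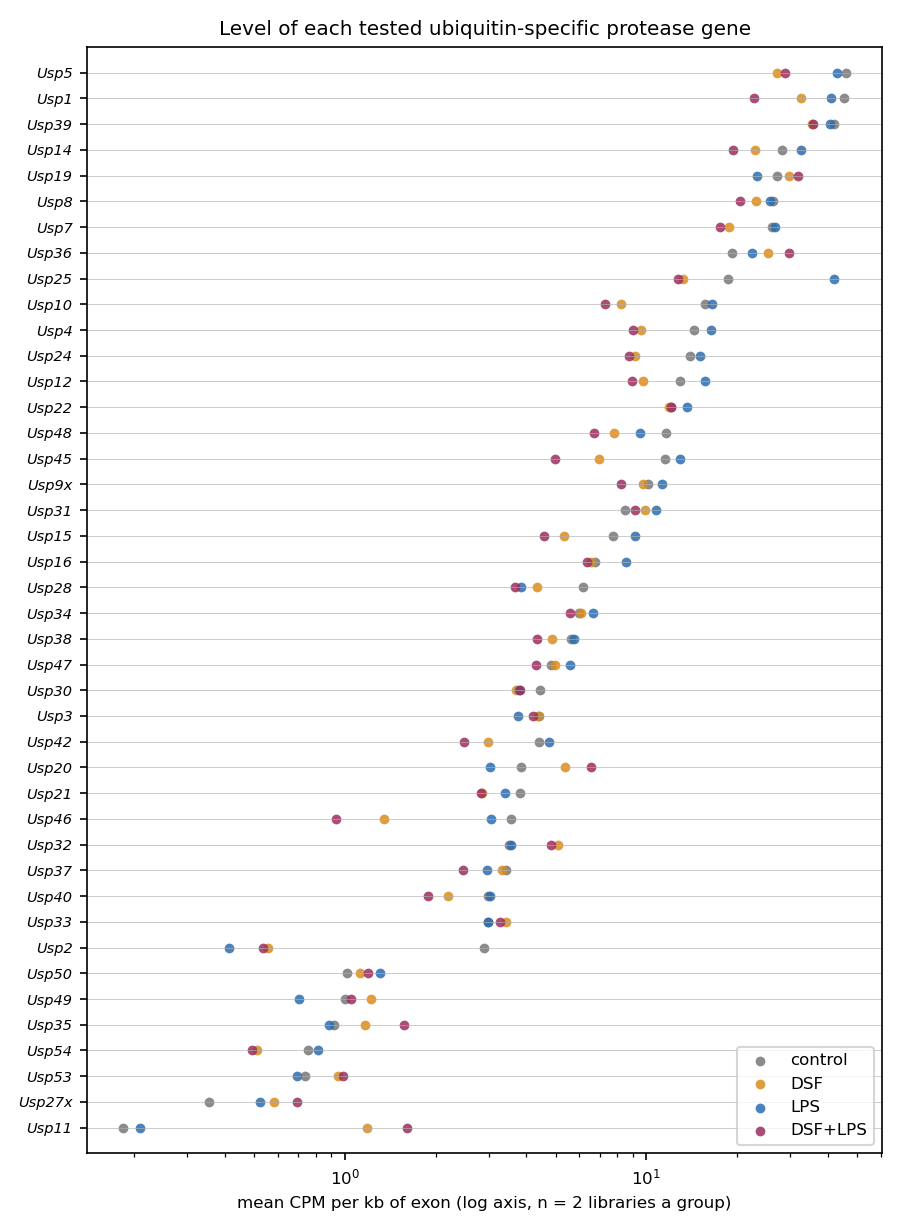
Mean CPM per kb of exon (log axis) of the 42 tested members in the 4 groups, 2 libraries each, ordered by their level in control. Usp5 is highest in control at 45.9 CPM per kb and Usp11 lowest at 0.184, and the LPS point of Usp25 stands apart from its other 3 points.

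Most of the family was expressed in these macrophages. Per kb of exon, the highest mean levels in control were those of Usp5, which takes apart free ubiquitin chains (45.9 CPM per kb), Usp1, which acts on DNA repair proteins (45.1), and Usp39, a splicing factor (41.8). Usp14, which sits on the proteasome, had 28.2 and Usp19, which is anchored in the endoplasmic reticulum, 27.1 CPM per kb. With LPS the level of Usp25 moved from rank 9 to rank 2, at 41.9 CPM per kb after Usp5 at 43.0. With DSF the highest levels were those of Usp39 (35.5), Usp1 (32.6) and Usp19 (29.8), and with both agents those of Usp39 (35.6), Usp19 (31.9) and Usp36 (29.8). The order of close neighbours was not tested. The 7 members that were not tested (Usp9y, Usp13, Usp26, Usp29, Usp43, Usp44 and Usp51) had between 1 and 10 counts over all 8 libraries together.

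As a sum, the 49 genes made 3186 and 3292 CPM in the control libraries and 3419 and 3511 CPM with LPS. They made 2728 and 2665 CPM with DSF and 2557 and 2525 CPM with both agents. These CPM are TMM-scaled. As a plain percentage of all counts the genes made 0.346 and 0.357 in control and 0.330 and 0.344 with LPS. The order of control and LPS thus depended on the scaling. With DSF the percentages were 0.278 and 0.266, and with both agents 0.241 and 0.236. By either measure all 4 libraries with the drug lay below all 4 without it. In such bulk samples, fewer cells that express a gene and less of its RNA per cell cannot be told apart.

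**Figure D2:**
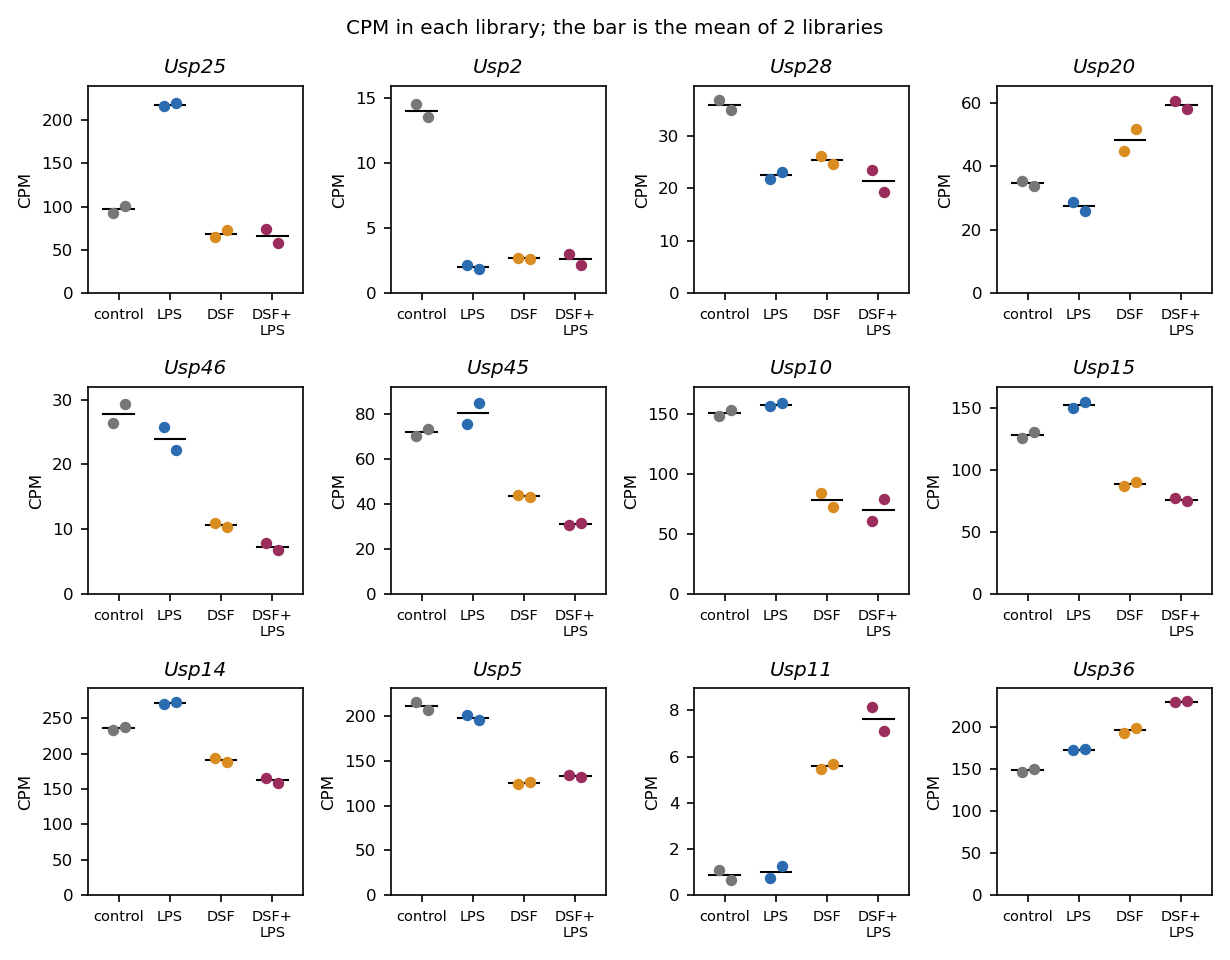
CPM of 12 members in each library (points) with the mean of the 2 libraries of a group (bar), from control to DSF+LPS. Usp25 is high in the 2 LPS libraries alone (216 and 220 CPM), Usp2 is high in the 2 control libraries alone (14.5 and 13.5 CPM), and Usp11 is above 5 CPM in the 4 libraries with DSF.

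LPS alone raised Usp25 and lowered Usp2 and Usp28, and its other calls were under 1.5-fold. Of 42 members 7 rose (16.7%, against 15.2% of all genes tested) and 5 fell (11.9%, against 13.8%), with a median log2 fold change of 0.04 where that of all genes was 0.02. In all 12 members were called, where 29.0% of all genes tested were, so the family was called about as often as other genes.

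Usp25 encodes an enzyme that removes ubiquitin from the adaptors TRAF3 and TRAF6. It stood at 93.1 and 101 CPM in control and at 216 and 220 CPM with LPS, and the groups did not overlap. The rise was 2.25-fold (log2 fold change 1.17, SE 0.10, edgeR adjusted p = 3.18e-07). Usp2, a gene under the control of the circadian clock, had 14.5 and 13.5 CPM in control and 2.16 and 1.82 with LPS. It fell to 0.143 of control (log2 fold change -2.81, SE 0.21, adjusted p = 7.36e-08), the largest change of any member with LPS. Usp28, which stabilises MYC and binds the DNA damage protein 53BP1, went from 36.7 and 34.9 to 21.8 and 23.0 CPM (log2 fold change -0.68, SE 0.11, adjusted p = 0.000285). These were the members at least 1.5-fold from control.

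The other 9 calls with LPS were small. Usp31 rose by 0.34 on the log2 scale (SE 0.07, adjusted p = 0.00232), from 85.5 and 90.2 to 110 and 113 CPM. Usp16, a histone H2A deubiquitinase, rose by 0.34, Usp12 by 0.28, Usp15 by 0.25, Usp36 by 0.22 and Usp14 by 0.20, while Usp20 changed by -0.34, Usp48 by -0.29 and Usp19 by -0.22 (adjusted p from 0.00692 to 0.0259). Each of these 8 lost its call without 1 of the control or LPS libraries, with adjusted p up to 0.204 for Usp12, 0.198 for Usp20, 0.181 for Usp19, 0.160 for Usp14, 0.147 for Usp36, 0.146 for Usp15, 0.110 for Usp16 and 0.0853 for Usp48. Without control replicate 1, control replicate 2 or LPS replicate 2 the number that rose was 2, and without LPS replicate 1 it was 3. The number that fell was 3, 4, 2 and 3 in the same order. With scaling by library size alone, which shifted the median of all genes by -0.16, 1 member rose (Usp25) and 12 fell.

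The counting of strand is not given in the sources used here, so reads of overlapping genes cannot be assigned with certainty. Exons of Usp16 overlap those of Cct8, those of Usp14 overlap Thoc1, and those of Usp40 overlap Dgkd, each on the other strand. Usp2, Usp11, Usp25 and Usp28 overlapped no gene with more than 1 count in a library.

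DSF alone lowered USP genes far more often than it raised them. Of 42 members 22 fell (52.4%, against 27.1% of all genes tested) and 5 rose (11.9%, against 31.0%). In either direction 27 members were called, where 58.1% of all genes were. The median log2 fold change of the members was -0.23 and that of all genes 0.05. Across genes with a length, the change with DSF was lower where the level per kb in control was higher (Spearman's rho -0.419). The background shares here and below were not matched to the members for level. Of these calls 17 falls and 4 rises held without any 1 library. The rises that held were those of Usp11, Usp20, Usp32 and Usp36.

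**Figure D3:**
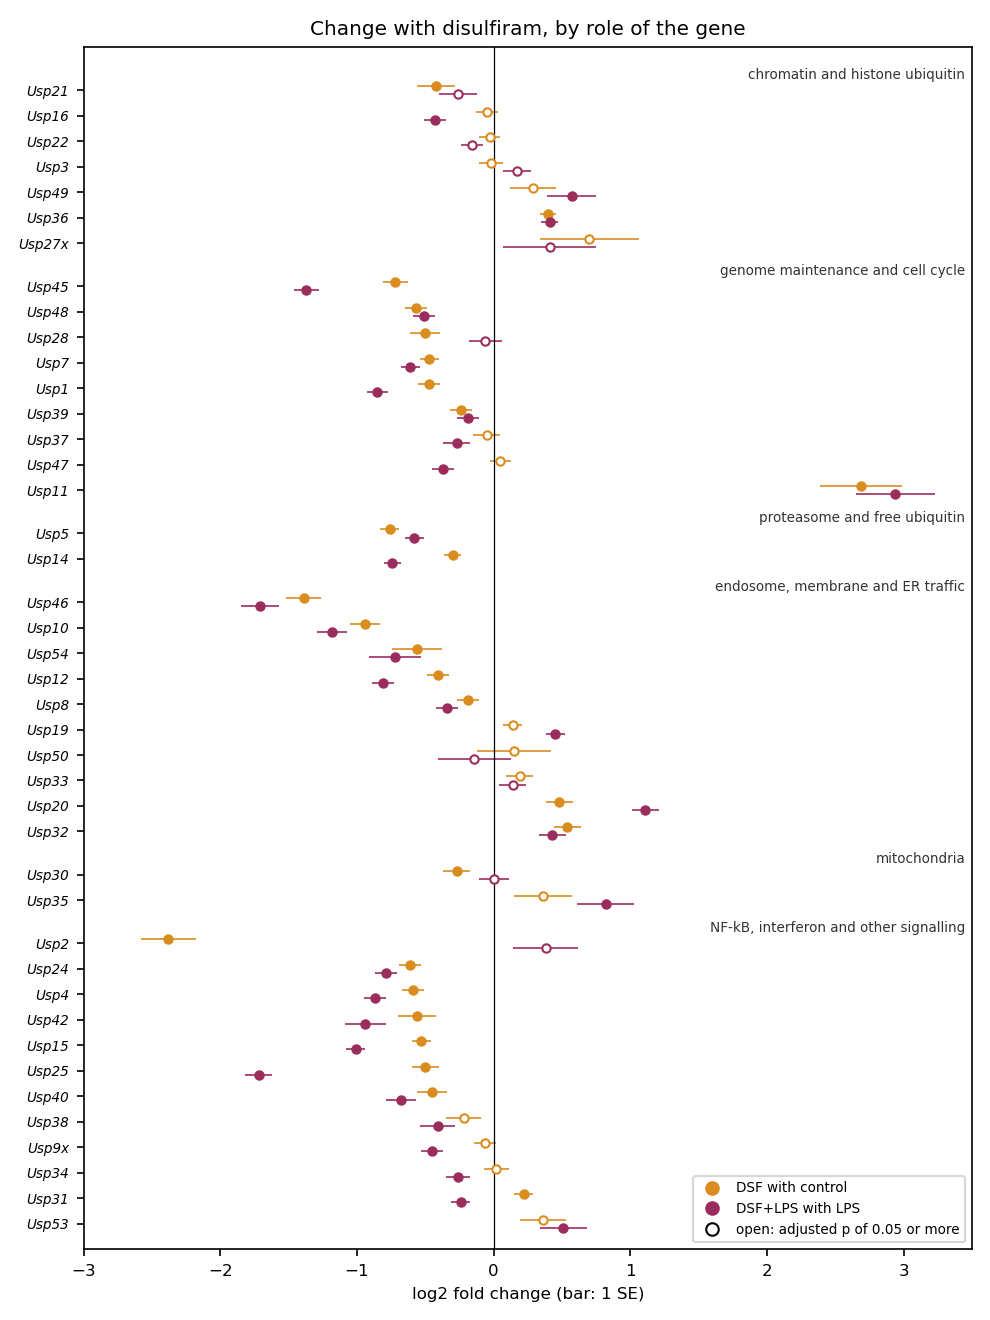
Log2 fold change with DSF in cells without LPS and in cells with LPS for the 42 tested members, grouped by role, with bars of 1 SE and open points where adjusted p was 0.05 or more. Points of most members lie left of 0 in both comparisons, Usp11 lies near 2.69 and 2.94, and Usp2 lies at -2.38 without LPS and at 0.38 with it.

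The largest falls were in Usp2 and Usp46. Usp2 had 2.72 and 2.63 CPM with DSF, where control had 14.5 and 13.5 (log2 fold change -2.38, SE 0.20, adjusted p = 1.53e-07). Its mean was 2.68 ± 0.0586 CPM with the drug alone and 1.99 ± 0.243 CPM with LPS alone (SD, n = 2), and both comparisons share the control libraries. Usp46 went from 26.4 and 29.3 to 10.9 and 10.3 CPM, 0.381 of control (SE 0.13 on the log2 scale, adjusted p = 4.65e-07).

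Usp46, Usp12 and Usp1 are enzymes that need the same activating partner, the WD repeat protein that Wdr48 encodes. Usp12, the close relative of Usp46, went from 58.6 and 61.2 to 44.4 and 46.0 CPM (log2 fold change -0.41, SE 0.08, adjusted p = 0.000751). Usp1 went from 164 and 173 to 125 and 118 CPM (-0.47, SE 0.08, adjusted p = 0.000126). Wdr48 itself fell from 62.3 ± 3.75 to 38.9 ± 0.644 CPM (SD, n = 2; adjusted p = 0.000174). Other genes on the list of USP partners described below did not all fall. Dmwd rose from 14.8 ± 0.547 to 36.6 ± 2.64 CPM (SD, n = 2, adjusted p = 1.33e-07). Wdr20 had 22.6 ± 0.152 and 21.6 ± 1.68 CPM (SD, n = 2) and did not pass. The log2 fold change of Usp46 was -1.39, and its difference from those of Usp12 and Usp1 was not tested.

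Usp10 binds the stress granule protein that G3bp1 encodes. It went from 148 and 153 to 84.3 and 72.6 CPM with DSF (log2 fold change -0.94, SE 0.11, adjusted p = 3.50e-06). G3bp1 fell from 409 ± 11.7 to 241 ± 0.584 CPM (SD, n = 2; adjusted p = 1.09e-07). In the same group of membrane and traffic genes Usp54 and Usp8, which works at endosomes, fell, and Usp20 and Usp32 rose, which gives 5 falls and 2 rises among 10. Usp20 went from 35.4 and 33.8 to 44.7 and 51.9 CPM (log2 fold change 0.48, SE 0.10, adjusted p = 0.000745). Usp32 went from 25.7 and 28.1 to 39.0 and 39.0 CPM (0.54, SE 0.10, adjusted p = 0.000299).

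Both tested genes of proteasome and free ubiquitin handling fell. Usp5 went from 216 and 207 to 124 and 127 CPM (log2 fold change -0.76, SE 0.07, adjusted p = 2.26e-07). Usp14 went from 234 and 237 to 194 and 188 CPM (-0.30, SE 0.06, adjusted p = 0.000898). Over the same libraries Ubb, which encodes a chain of ubiquitin units, rose 4.55-fold from 527 ± 19.0 to 2400 ± 411 CPM (SD, n = 2; adjusted p = 1.03e-10). Its repeats are nearly the same as those of other ubiquitin genes, so the assignment of its reads is uncertain. Of 31 proteasome subunit genes 5 rose and 6 fell.

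Among 9 genes of genome maintenance and the cell cycle 6 fell and 1 rose. Usp45, which acts on a DNA repair nuclease, went from 70.2 and 73.2 to 43.8 and 43.2 CPM (log2 fold change -0.72, SE 0.09, adjusted p = 5.32e-06). Usp48 changed by -0.57, Usp28 by -0.50 and Usp7, the regulator of the p53 ligase MDM2, by -0.47 (SE 0.07, adjusted p = 3.95e-05). The rise was that of Usp11, an enzyme linked to BRCA2, from 1.09 and 0.654 to 5.48 and 5.68 CPM. It came to 6.47-fold (log2 fold change 2.69, SE 0.30, adjusted p = 2.99e-06) and rested on 21 and 15 counts in the control libraries against 121 and 110 with DSF.

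Usp11 had the lowest level per kb of the tested members in control. Across the 42 members the log2 fold change with DSF was lower where the level per kb in control was higher (Spearman's rho -0.388), and across 16223 genes with a length rho was -0.419. Both measures use the control libraries, and genes are not independent replicates. Sums of several marker lists foreign to macrophages were also higher with DSF than in control. The 6 germ cell genes, of which Tnp1 was at 0, summed to 0.0517 to 0.174 CPM in control and 1.13 to 1.34 CPM with DSF. The 6 lymphocyte genes, of which Cd3e, Cd3g and Nkg7 were at 0, summed to 0.174 to 0.362 and 1.31 to 2.12 CPM, and the 5 fibroblast genes to 0 to 0.305 and 0.826 to 1.40 CPM. The 5 neutrophil genes, of which S100a9 was at 0, summed to 0 to 0.131 and 0.272 to 0.568 CPM, and the 7 epithelial and endothelial genes to 8.15 to 8.33 and 10.5 to 11.2 CPM. The sums of the 5 dendritic cell genes overlapped, at 0.828 to 2.48 and 1.45 to 2.72 CPM. In LPS-treated cells the germ cell sum was 0.0982 to 0.287 CPM without the drug and 0.709 to 2.07 with it. The lymphocyte sum was 0.478 to 0.540 and 1.20 to 2.88, and the neutrophil sum 0 to 0.0491 and 0.327 to 0.555. The dendritic cell sum was 1.42 to 2.20 and 2.51 to 2.88, and the fibroblast sums overlapped, at 0.0982 to 0.335 and 0.273 to 0.959. The epithelial and endothelial sum was lower with the drug there, at 13.0 to 14.2 CPM without it and 8.68 to 12.6 with it. Their part in the rise of Usp11 was not tested.

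The paralogs Usp4, Usp11 and Usp15 went different ways. Usp4 went from 124 and 124 to 86.0 and 79.3 CPM (log2 fold change -0.59, SE 0.08, adjusted p = 1.31e-05). Usp15 went from 126 and 131 to 87.4 and 90.1 CPM (-0.53, SE 0.07, adjusted p = 1.63e-05).

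Among the 12 tested genes of NF-kB and other signalling 7 fell and 1, Usp31, rose. Besides Usp2, Usp4 and Usp15, the falls were in Usp24 (log2 fold change -0.61), Usp42 (-0.56), Usp25 (-0.50) and Usp40 (-0.45). Usp25 went from 93.1 and 101 to 64.6 and 72.5 CPM (adjusted p = 0.000648). The values of Usp38 (32.3 ± 3.13 and 27.9 ± 2.31 CPM) and Usp9x (152 ± 12.8 and 146 ± 12.3 CPM; control and DSF, SD, n = 2) did not pass the test.

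Of the 7 tested chromatin genes 1 rose and 1 fell. Usp36, a nucleolar enzyme, rose from 146 and 150 to 193 and 198 CPM (log2 fold change 0.40, SE 0.06, adjusted p = 9.63e-05), and Usp21, a histone H2A deubiquitinase, changed by -0.42. Usp22, the deubiquitinase of the SAGA coactivator, had 59.4 ± 0.781 CPM in control and 58.1 ± 1.23 with DSF (SD, n = 2) and did not pass. Usp16 had 64.0 ± 0.402 and 61.8 ± 1.84 CPM, and Usp27x 1.51 ± 0.821 and 2.49 ± 0.451 CPM, and neither passed. Calls of 6 members in this comparison were lost without 1 library: adjusted p reached 0.206 for Usp21 (without control replicate 1), 0.187 for Usp8, 0.168 for Usp54 and 0.132 for the mitochondrial Usp30 (without control replicate 2), 0.177 for Usp31 (without control replicate 1) and 0.149 for Usp39 (without DSF replicate 1).

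In LPS-treated cells, too, more members fell with the drug than rose. Comparing DSF+LPS with LPS, 25 of 42 members fell (59.5%, against 31.6% of all genes tested) and 8 rose (19.0%, against 33.7%), with a median log2 fold change of -0.31 against 0.04 for all genes. In either direction 33 members were called, where 65.3% of all genes were. This comparison shares no library with that of DSF and control. Of the 22 members that fell without LPS 18 fell here as well, which is 81.8% of the first list and 72.0% of the second. Of the 5 that rose without LPS 4 rose here (80.0% and 50.0%): Usp11, Usp20, Usp32 and Usp36. Across the 42 members the log2 fold changes of the 2 comparisons had a Pearson's r of 0.736 and a Spearman's rho of 0.794, and across all 16304 genes these were 0.844 and 0.778, so the likeness is not particular to the family.

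Usp25 showed the largest fall, from 216 and 220 CPM with LPS to 74.0 and 58.3 CPM with both agents (log2 fold change -1.72, SE 0.10, adjusted p = 2.21e-09). Usp46 went from 25.8 and 22.2 to 7.87 and 6.77 CPM (-1.71, SE 0.14, adjusted p = 6.49e-08). Usp45 went from 75.4 and 84.7 to 30.6 and 31.3 CPM (-1.37, SE 0.09, adjusted p = 5.57e-09). Exons of Usp45 overlap those of Tstd3 on the other strand, and Tstd3 had 150 and 176 counts with LPS and 69 and 75 with both.

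Usp10 changed by -1.18 (SE 0.11) and Usp15 by -1.01 (SE 0.07), with adjusted p = 2.58e-07 and 1.68e-08. Usp14 fell from 270 and 273 to 166 and 158 CPM (-0.74, SE 0.06, adjusted p = 1.33e-07), and its overlapping neighbour Thoc1 fell too (-0.92, adjusted p = 5.03e-06). Usp5 changed by -0.58, Usp1 by -0.85, Usp12 by -0.81, Usp4 by -0.87 and Usp7 by -0.61. Usp9x (-0.45) and Usp16 (-0.43) also fell, and so did Usp34 (-0.26; adjusted p = 0.121 without LPS replicate 2), whose exons overlap the cochaperone gene Ahsa2 that rose by 1.42.

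The largest rise was again that of Usp11, from 0.737 and 1.24 CPM with LPS to 8.17 and 7.09 CPM with both agents (log2 fold change 2.94, SE 0.29, adjusted p = 5.89e-07). Usp20, which removes ubiquitin from TRAF6 and from membrane receptors, rose 2.16-fold from 27.4 ± 1.95 to 59.2 ± 1.77 CPM (SD, n = 2; adjusted p = 1.98e-07). Usp35 rose from 4.08 and 5.31 to 7.27 and 9.39 CPM (0.82, SE 0.21, adjusted p = 0.00291). Usp19 (0.45), Usp32 (0.43) and Usp36 (0.41) rose by less. Usp49 and Usp53 rose by 0.57 and 0.51, with adjusted p = 0.103 without LPS replicate 1 and 0.105 without LPS replicate 2. Usp2 had 2.16 and 1.82 CPM with LPS and 2.98 and 2.18 CPM with both, which did not differ by the test (adjusted p = 0.183 at a log2 fold change of 0.38).

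Calls of 7 members in this comparison did not hold without each library: Usp31, Usp34, Usp37, Usp38, Usp39, Usp49 and Usp53. That of Usp38 reached adjusted p = 0.114 without LPS replicate 2, and that of Usp31 0.0642. Ubb rose 5.13-fold in the same comparison.

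In cells that already had the drug, LPS changed few members, and few of all genes tested. Of 42 members 1 rose (2.38%, against 5.53% of all genes tested) and 5 fell (11.9%, against 6.53%), when DSF+LPS was compared with DSF. In either direction 12.1% of all genes were called, so with 6 calls among 42 the family was called about as often as other genes. Usp1 went from 125 and 118 to 89.3 and 80.5 CPM (log2 fold change -0.52, SE 0.08, adjusted p = 0.00101). Usp45 went from 43.8 and 43.2 to 30.6 and 31.3 CPM (-0.49, SE 0.09, adjusted p = 0.00362). These 2 calls held without any 1 library. Those of Usp46 (-0.54), Usp37 (-0.43), Usp14 (-0.24) and Usp36 (0.23) did not, with adjusted p up to 0.196, 0.0987, 0.238 and 0.198, each without DSF replicate 1. The number that fell was 2 without DSF replicate 1, 3 without DSF replicate 2 and 9 without DSF+LPS replicate 1.

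Of the 7 members that rose with LPS alone, 1, Usp36, also rose with LPS after the drug. Of the 5 that fell with LPS alone 0 fell after it. These counts compare calls, not sizes of response, and the same overlap was not counted for all genes. Usp48 changed by -0.29 without the drug and -0.23 with it, and its interaction did not pass (adjusted p = 0.756). Usp2 changed by -2.81 and -0.05, and its interaction passed. The 5 that fell after the drug were Usp1, Usp14, Usp37, Usp45 and Usp46. Across the 42 members the responses to LPS without and with the drug, which share no library, had a Pearson's r of 0.0710 and a Spearman's rho of 0.0899. Across all genes tested these were 0.287 and 0.221.

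**Figure D4:**
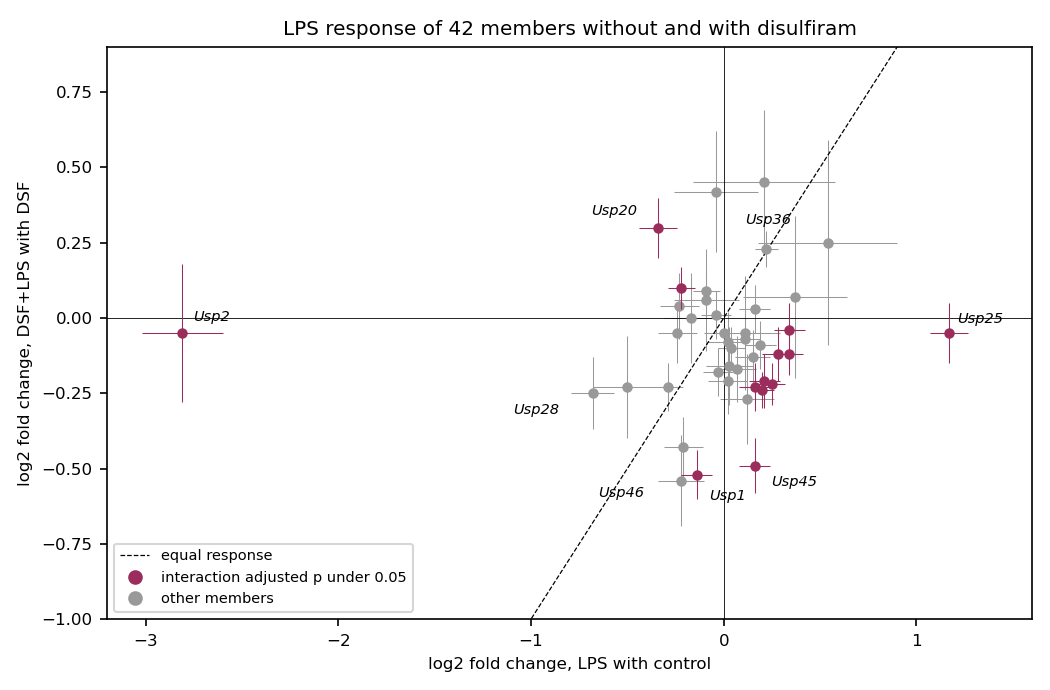
Log2 fold change with LPS in cells without DSF (x axis) and with DSF (y axis) for the 42 tested members, with bars of 1 SE; coloured points passed the test of the interaction and the dashed line marks equal responses. Usp2 lies at -2.81 and -0.05 and Usp25 at 1.17 and -0.05, so both stand far from the line.

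The test of the interaction asks whether the LPS response differed with the drug. It passed for 13 members, 10 with a lower log2 response under the drug (23.8%, against 12.2% of all genes tested) and 3 with a higher one (7.14%, against 7.58%). Lower and higher give the sign of the interaction, not whether the response shrank. Usp2 counted as higher because its fall with LPS was lost. Usp1 counted as lower with responses of -0.14 without the drug and -0.52 with it, and Usp45 with 0.16 and -0.49. In either direction 19.7% of all genes passed. For Usp25 the response went from 1.17 without the drug to -0.05 with it (interaction -1.22, SE 0.14, adjusted p = 2.41e-05), and the level with both agents, 66.2 ± 11.1 CPM, was close to that with DSF, 68.5 ± 5.62 CPM (SD, n = 2). For Usp2 it went from -2.81 to -0.05 (interaction 2.76, SE 0.32, adjusted p = 1.91e-05), where the gene was already at 2.68 CPM with the drug alone.

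Usp45, Usp15, Usp31 and Usp14 had lower log2 responses under the drug, with interactions of -0.65, -0.47, -0.46 and -0.44. Usp20 had a higher one (interaction 0.63, SE 0.14, adjusted p = 0.00517), with 34.6 ± 1.13 CPM in control, 48.3 ± 5.03 after DSF, 27.4 ± 1.95 after LPS and 59.2 ± 1.77 after DSF+LPS (SD, n = 2). These 7 interactions held without any 1 library. Those of Usp1, Usp9x, Usp12, Usp16, Usp19 and Usp47 did not, with adjusted p up to between 0.140 and 0.195. Leaving out control replicate 1 or LPS replicate 2 left 7 members in all, and leaving out control replicate 2 or DSF replicate 1 left 8.

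Partner genes of the family moved in both directions with DSF. Of 15 such genes, taken from a list of known USP partners, 6 rose and 7 fell, where 31.0% of all genes tested rose and 27.1% fell. Besides Wdr48 and G3bp1, Gmps, whose product activates USP7, fell from 134 ± 3.20 to 82.2 ± 2.63 CPM (SD, n = 2; adjusted p = 1.25e-06). Stam2 and Hgs, endosomal sorting genes whose products work with USP8, rose 3.32-fold and 1.88-fold (adjusted p = 1.75e-10 and 1.69e-06). Stam, on the same list, fell from 28.4 ± 0.179 to 22.4 ± 2.29 CPM (SD, n = 2, adjusted p = 0.0171). In LPS-treated cells the drug raised 5 and lowered 8 of the same 15, where 33.7% of all genes rose and 31.6% fell.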

How the data were processed

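The authors deposited raw read counts per gene for 8 libraries. The submitters' processing notes list GRCm39 and DESeq2 with no role. Aligner, counter, annotation and strand setting: not given in the sources used here. The deposited counts were tested with edgeR 4.0.16 (R 4.3.3), by the quasi-likelihood test with TMM scaling, in 1 fit of all 8 libraries with a mean for each group. The filterByExpr defaults (minimum count 10, minimum total 15) left 16304 genes. Adjusted p is Benjamini-Hochberg over all of them, and "rose", "fell" and "called" mean adjusted p under 0.05. SE is approximate, from dividing the size of the log2 value by the root of its F statistic. CPM uses the TMM-scaled totals of tested genes, and levels per kb use exon lengths of GENCODE M21. Symbols matched 52081 of 55414 identifiers, from an annotation of GRCm38, so coordinates are printed for RefSeq sequences alone. Scripts were tested on simulated data.

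Members, roles, lists and the naming rule were chosen with earlier results of these data known. Named were all members called with LPS, the 8 largest rises and falls with DSF and the 5 largest with DSF in LPS-treated cells, up to 8 interactions, and 21 members with well-known roles. Usp34, Usp37, Usp39, Usp40, Usp42 and Usp54 were named after their values were seen. So were the partner genes Stam, Wdr20 and Wdr48, and the genes that overlap members. Alternatives were DESeq2 1.42.0, library size alone, no filter, a replicate block, fits of the compared groups, each library left out, and a 1.5-fold minimum. Replicate numbers showed no strong pairing: deviations of same-numbered libraries correlated between -0.119 and 0.0531. With 2 libraries a group this cannot show whether same-numbered libraries shared a culture or day.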

Additional observations from a re-analysis of the deposited data

Results flagged for a closer look

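Members whose response to LPS differed with the drug by the test of the interaction were these 13. The values are the log2 response with DSF minus that without it. They were -1.22 for Usp25, 2.76 for Usp2, -0.65 for Usp45, -0.44 for Usp14, -0.47 for Usp15, 0.63 for Usp20 and -0.46 for Usp31. For Usp47, Usp1, Usp19, Usp12, Usp9x and Usp16 they were -0.42, -0.38, 0.31, -0.40, -0.39 and -0.38, and these 6 lost the call without at least 1 library.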

How the results depend on the processing

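With library size alone 1 rose and 12 fell with LPS, 0 rose and 10 fell with LPS after DSF (10 in all), and 6 interactions were lower. Without the filter 3 rose with LPS. In fits of the compared groups 9 fell with LPS, and with LPS after DSF 0 rose and 2 fell (2 in all). With a minimum of 1.5-fold, 1 rose and 2 fell with LPS (3), 1 and 7 with DSF (8), 3 and 14 with DSF in LPS-treated cells (17), 0 and 0 with LPS after DSF (0), and 2 of 4 interactions were lower. Leaving out 1 library at a time gave 4 to 14 calls with LPS (2 to 7 risen, 2 to 7 fallen), 2 to 10 with LPS after DSF (0 to 2 risen, 2 to 9 fallen) and 7 to 13 interactions (5 to 10 lower). The log2 fold change with LPS after DSF ran from -0.30 (without DSF+LPS replicate 1) to 0.18 (without DSF+LPS replicate 2) for Usp2. For Usp25 it was -0.24 and 0.14 without the same libraries and 0.05 without DSF replicate 2. Of DSF calls 21 of 27, and of calls with DSF in LPS-treated cells 26 of 33, held in all alternatives that kept the threshold. With the replicate block 7 rose and 5 fell with LPS, 5 and 22 with DSF, 8 and 24 with DSF in LPS-treated cells and 1 and 5 with LPS after DSF, and 13 interactions passed. The replicate block crossed between DSF and DSF+LPS, added after seeing the data, gave 1 and 5. Depth limits Usp11, Usp27x and the untested members.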

Other observations

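Of all genes tested 31.0% rose and 27.1% fell with DSF, and 33.7% and 31.6% with DSF in LPS-treated cells, which is the background of the counts given here. Of 14 tested enzymes of the OTU family 6 rose and 5 fell with DSF, and 5 rose and 5 fell with DSF in LPS-treated cells. Tnfaip3, which encodes the NF-kB inhibitor A20, went from 14.0 ± 1.02 CPM in control to 121 ± 6.69 after LPS, while DSF gave 16.3 ± 0.224 and DSF+LPS 49.0 ± 3.82 CPM (SD, n = 2). Of 9 genes on a list of the JAMM family 4 rose with DSF (Eif3f, Eif3h, Psmd14 and Stambpl1) and 3 fell. In LPS-treated cells 2 of them rose with the drug, Eif3f and Eif3h, and 5 fell. Of 3 Josephin enzymes 0 rose and 2, Atxn3 and Josd1, fell with DSF, and the same counts were found in LPS-treated cells. Of 5 UCH enzymes 1 rose and 2 fell with DSF, and the rise was that of Uchl1, from 90.0 ± 8.13 to 206 ± 3.65 CPM (edgeR adjusted p = 1.21e-08).

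Of 7 proteases that remove the related modifier SUMO 1 rose and 4 fell with DSF. In LPS-treated cells 6 fell and 0 rose. Senp3, a nucleolar SUMO protease, fell from 207 ± 0.276 to 102 ± 2.94 CPM with DSF and from 214 ± 0.728 CPM with LPS to 91.7 ± 4.71 CPM with DSF+LPS (SD, n = 2; adjusted p = 1.57e-08 and 1.47e-09).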
